A study of Arabidopsis thaliana with 6 samples.

Results

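The 4 WRINKLED genes of *Arabidopsis*, *WRI1* (AT3G54320), *WRI2* (AT2G41710), *WRI3* (AT1G16060) and *WRI4* (AT1G79700), were followed in an embryo RNA-Seq experiment. They were picked out by locus number and are 4 of the 24509 transcripts with at least 1 read in any library. All 4 passed the filter on low counts and were among the 18241 genes tested.

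WRI1 to WRI4 are transcription factors of the AP2 subfamily, which carry a pair of AP2 DNA-binding domains. WRI1 is known as the activator of late glycolysis and plastidial fatty acid (FA) synthesis in maturing seeds, and its loss gives wrinkled, oil-poor seeds. WRI3 and WRI4 are known to activate the same class of genes in floral and stem tissues, where the FA feed cutin and wax, and WRI3 is also named ADAP for a role in abscisic acid responses. WRI2 is known as the paralog that did not replace WRI1 in the seed.

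Embryos of *atwri1-1* and of wild type (WT), both in the Col-0 ecotype, were taken out of the seeds 8 d after pollination, with 3 biological replicates of 25 to 30 pooled embryos per genotype. The *atwri1-1* plants were homozygous. The DNA change in *atwri1-1* is not given in the sources used here, and reads summed over a transcript cannot show whether a working protein was made, so the level of *WRI1* mRNA does not check the genotype labels. The libraries are therefore called by their labels. Between 8510887 and 18933870 reads per library were counted on transcripts. *atwri1-1* replicate 1 stood apart in the row that names no transcript, which held 86.6% of its file's total, against 39.6 to 45.0% in the other 5 libraries. WT replicate 1 had the lowest TMM factor (0.882, against 0.965 to 1.07 elsewhere). Its counts also differed more from those of the other WT replicates than any other replicates of a genotype did from each other. All 10 embryo marker genes listed had reads in both genotypes. Values are given as CPM, counts per 1e+06 reads of the tested genes after edgeR's TMM scaling, or per transcript length as RPKM (CPM per kilobase of transcript), which allows one gene to be set beside another. Calls rest on edgeR's quasi-likelihood test over all 18241 genes, with a log2 fold change beyond 1 and a p-value no higher than 0.05 after Benjamini-Hochberg adjustment. Replicates were labelled as separate biological samples of pooled embryos, and intervals on reads of 1 library cover counting error only. Fewer cells of a type and less RNA per cell cannot be told apart in these samples.

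The gene models differ in size and place. In TAIR10.1, *WRI1* lies on the plus strand of chromosome 3 (20114488 to 20118745), *WRI2* on the minus strand of chromosome 2 (17400022 to 17403050), *WRI3* on the plus strand of chromosome 1 (5508311 to 5511736) and *WRI4* on the minus strand of chromosome 1 (29990336 to 29993766). The counted transcripts were 1470, 1776, 1416 and 1154 bases long for *WRI1*, *WRI2*, *WRI3* and *WRI4*, in 8, 11, 8 and 8 exons. The shortest exons are given here for *WRI2*, *WRI3* and *WRI4* only, and *WRI1* was not part of this comparison. They are coding and 9 bases long, exon 5 in *WRI2* and exon 3 in *WRI3* and *WRI4*. They are shown because they are the shortest stretch by which the 3 paralogs can be set side by side. The exon is in capitals and 10 intron bases are in lower case on either side, in the direction of transcription, from the RefSeq annotation of TAIR10.1.
WRI2: gccacaccagTTTATCTAGgtaagctaaa
WRI3: tcacgtgcagTATATTTAGgtgagtttgt
WRI4: tcaagtgcagTTTATCTAGgtgagttttt
The exons lie at 17402099 to 17402107 on chromosome 2 for *WRI2*, and 5509147 to 5509155 and 29993080 to 29993088 on chromosome 1 for *WRI3* and *WRI4*. The exon was the same 9 letters in *WRI2* and *WRI4*, and *WRI3* had its own.

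The transcripts of the members shared few exact stretches with one another or with other genes. Over the whole coding sequence, *WRI3* and *WRI4* were the closest pair, identical at 81.9% of aligned bases, and every other pair was identical at 62.8 to 68.3%. Of the stretches of 31 bases in each transcript, 100% were found in no other transcript for *WRI1*, 98.3% for *WRI2*, 99.6% for *WRI3* and 97.5% for *WRI4*. The longest stretch shared between members was 35 bases, in *WRI3* and *WRI4*, and no other pair shared more than 19. *WRI2* and *WRI4* also shared stretches with genes that overlap them, AT2G41705 and AT1G79690, and reads with more than 1 best place were dropped in the deposited counts. The mapping allowed mismatches, so exact stretches do not show that every read was assigned to the right member.

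*WRI1* mRNA was the most abundant of the 4 and was higher in the libraries labelled *atwri1-1*. Its level was 1256, 1100 and 1042 CPM in *atwri1-1* replicates 1, 2 and 3, from 13729, 22312 and 9240 reads, against 186, 148 and 166 CPM in WT replicates 1, 2 and 3, from 2371, 1671 and 1928 reads. The groups did not overlap, and the lowest *atwri1-1* library was well above the highest WT library. The mean was 1133 ± 111 CPM in *atwri1-1* and 167 ± 19.2 CPM in WT (SD, n = 3 each), a 6.79-fold difference. The log2 fold change was 2.76 (standard error 0.161, 95% interval 2.39 to 3.14, adjusted p = 2.3e-04, edgeR's quasi-likelihood test), and *WRI1* was called higher. Between libraries of the same replicate number the log2 ratio was 2.75, 2.90 and 2.65. *WRI1* passed the same test under all 13 other settings tried, with a log2 fold change between 2.68 and 2.94.

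Among all genes, the position of *WRI1* was extreme. Of the transcripts with reads and a known length, *WRI1* ranked 45, 66 and 73 by RPKM in *atwri1-1* replicates 1, 2 and 3, against 1045, 968 and 870 in WT replicates 1, 2 and 3. It thus stood in the top 0.206 to 0.334% of transcripts in *atwri1-1*, and in the top 3.98 to 4.92% in WT. Of the 197 genes called higher, *WRI1* was number 26 by log2 fold change, number 2 by mean CPM in *atwri1-1* and number 1 by p-value. Its gain of 966 CPM was the 4th largest of all genes tested. Over all genes, 1.08% were called higher and 5.31% (968) lower, and 1 member was called in each direction. The 3 libraries of one group lay wholly above those of the other for 16.1% of genes in the higher direction and wholly below for 18.9% in the lower. Without any one *atwri1-1* library, 545 to 589 genes were called lower and 74 to 95 higher. Without WT replicate 1, 364 genes were called higher, and without WT replicate 3, 129. With no TMM scaling the median of all genes moved to a log2 fold change of 0.17, against -0.01 with it, and the share of calls that were lower was 69.6%, against 83.1%.

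**Figure D1:**
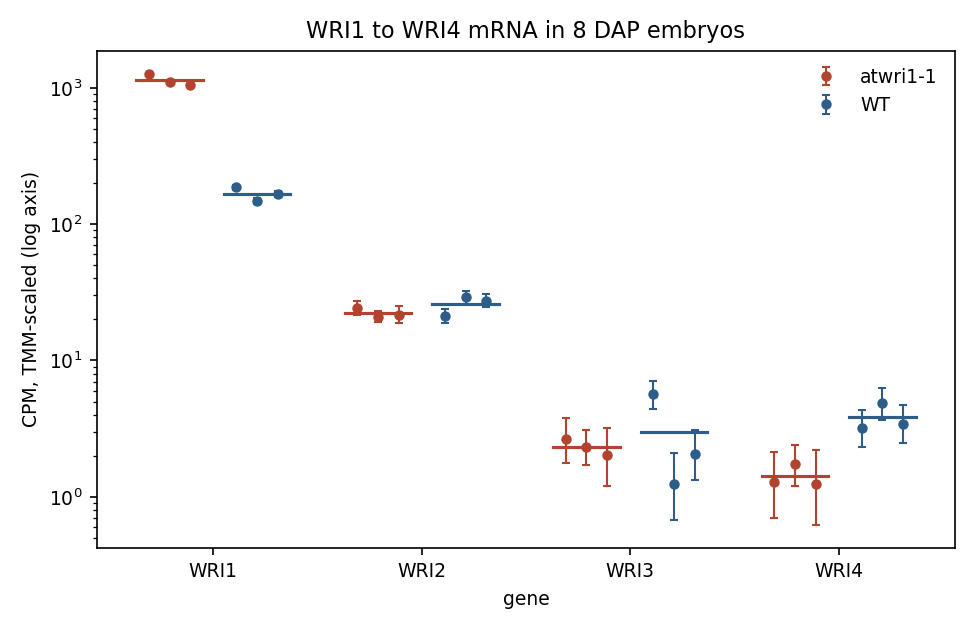
CPM of *WRI1* to *WRI4* on a log axis in each library, with *atwri1-1* left of WT for each gene. Points are libraries (replicates 1 to 3 from left to right) with exact 95% Poisson intervals for counting error, and horizontal lines are group means. *WRI1* lies at 1042 to 1256 CPM in *atwri1-1* and at 148 to 186 CPM in WT, and *WRI4* is the other gene whose groups do not overlap.

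*WRI4*, which is known for its role in cuticular wax and cutin supply, was the only other member called, in the opposite direction and at a much lower level. It had 1.28, 1.73 and 1.24 CPM in *atwri1-1* replicates 1, 2 and 3, from 14, 35 and 11 reads, against 3.22, 4.86 and 3.45 CPM in WT replicates 1, 2 and 3, from 41, 55 and 40 reads. Every *atwri1-1* library was below every WT library. The counting intervals of the nearest pair overlapped, however, at 1.20 to 2.40 CPM in *atwri1-1* replicate 2 and 2.31 to 4.37 CPM in WT replicate 1. The level in *atwri1-1* was 0.375 times that in WT, which is -1.42 on the log2 scale (standard error 0.330, 95% interval -2.19 to -0.64, adjusted p = 0.0376, edgeR's quasi-likelihood test). Between libraries of the same number the log2 ratio was -1.33, -1.5 and -1.48.

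The call of *WRI4* was close to the threshold. It was lost without *atwri1-1* replicate 1, 2 or 3 (adjusted p = 0.143, 0.106 and 0.163, edgeR's quasi-likelihood test), without WT replicate 2 (0.117) or 3 (0.0870), with no TMM scaling (0.0636) and at an adjusted p of 0.01. It was kept without WT replicate 1 (0.0178), and with DESeq2, limma-voom, the other scaling, no filter and the replicate block, where the adjusted p was 0.00955 to 0.0487. The direction was the same under all 13 settings, at -1.22 to -1.60. AT1G79690, which overlaps *WRI4* at its 3′ side and whose reads were likewise counted without regard to strand, had 86.5, 86.3 and 84.1 CPM in *atwri1-1* against 126, 120 and 139 CPM in WT (log2 fold change -0.58, adjusted p = 0.0231, edgeR's quasi-likelihood test, below the fold minimum). Its part in the *WRI4* value was not tested.

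*WRI2*, the second most abundant member, was not called. It had 24.2, 21.0 and 21.6 CPM in *atwri1-1* replicates 1, 2 and 3 and 21.2, 29.1 and 27.4 CPM in WT replicates 1, 2 and 3, from 192 to 426 reads in *atwri1-1* and 270 to 329 in WT. The groups overlapped, because WT replicate 1 lay among the *atwri1-1* libraries. The log2 fold change was -0.22 (standard error 0.164, 95% interval -0.60 to 0.17, adjusted p = 0.459, edgeR's quasi-likelihood test), an interval that leaves out a change beyond the fold minimum in either direction. The adjusted p fell to 0.0604 without WT replicate 1 and was 0.459 or more under the other settings.

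*WRI3*, the member closest to *WRI4* in sequence, was not called and was the least certain. It had 2.65, 2.32 and 2.03 CPM in *atwri1-1* replicates 1, 2 and 3, from 29, 47 and 18 reads, and 5.66, 1.24 and 2.07 CPM in WT replicates 1, 2 and 3, from 72, 14 and 24 reads. WT held both the highest and the lowest library. The counting interval of WT replicate 1, 4.43 to 7.12 CPM, overlapped that of no other library. The log2 fold change was -0.36 (standard error 0.554, 95% interval -1.66 to 0.94, adjusted p = 0.722, edgeR's quasi-likelihood test), an interval that holds both no change and a fall beyond the fold minimum. Without WT replicate 1 the sign turned, to a log2 fold change of 0.49 (adjusted p = 0.411).

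**Figure D2:**
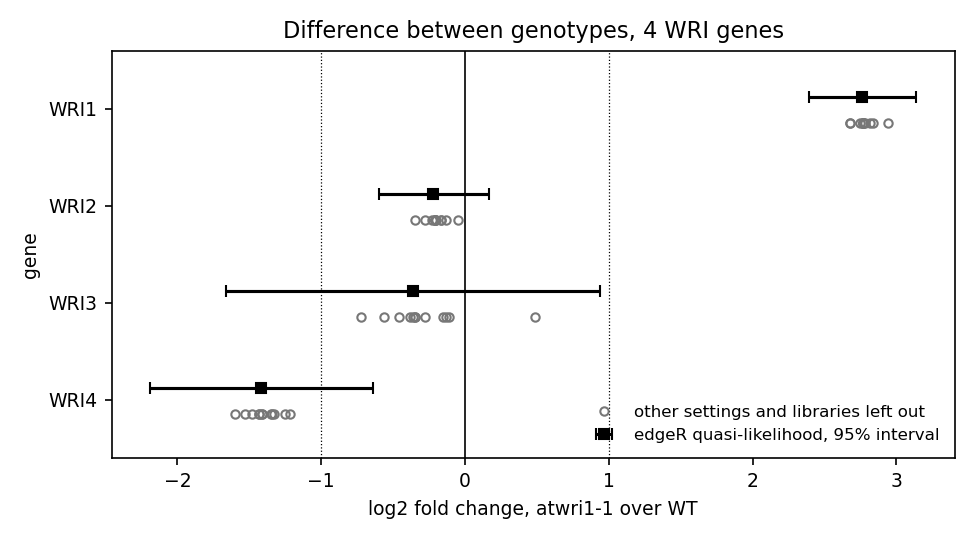
Log2 fold change of *atwri1-1* over WT for the 4 members. Squares with bars are edgeR's quasi-likelihood estimates with 95% intervals, open circles are the other tests, filters and scalings and the fits without 1 library, and dotted lines mark the fold minimum. All circles of *WRI1* lie right of 2.5 and all of *WRI4* left of -1, and 1 circle of *WRI3* lies on the other side of 0, at 0.49.

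Set per transcript length, the 4 members kept the same first and second place in both genotypes. In *atwri1-1* the order was *WRI1* (770 ± 75.2 RPKM, SD, n = 3), *WRI2* (12.6 RPKM, range 11.8 to 13.6), *WRI3* (1.65 RPKM, range 1.43 to 1.87) and *WRI4* (1.23 RPKM, range 1.07 to 1.5). In WT the order was *WRI1* (113 ± 13.1 RPKM, SD, n = 3), *WRI2* (14.6 RPKM, range 11.9 to 16.4), *WRI4* (3.33 RPKM, range 2.79 to 4.22) and *WRI3* (2.11 RPKM, range 0.875 to 3.99). The ranges of *WRI3* and *WRI4* overlapped in both genotypes, so their order was not resolved, and all other neighbours were apart. The mean of *WRI1* was 61.4 times that of *WRI2* in *atwri1-1* and 7.78 times in WT.

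*WRI1* held nearly all of the summed level of the 4 genes in *atwri1-1*. Its share of the summed RPKM was 98.1, 98.0 and 98.0% in *atwri1-1* replicates 1, 2 and 3, against 87.1, 82.4 and 85.0% in WT replicates 1, 2 and 3. The means were 98.0 ± 0.0613% and 84.9 ± 2.37% (SD, n = 3 each), a difference of 13.2 percentage points (two-sided exact permutation p = 0.1, the smallest that 3 against 3 allows). The summed RPKM of all 4 was 723 to 871 in *atwri1-1* and 122 to 145 in WT.

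None of the other 3 members was called higher. The summed RPKM of *WRI2*, *WRI3* and *WRI4* was 16.6, 15 and 14.7 in *atwri1-1* replicates 1, 2 and 3, against 18.7, 21.5 and 19.9 in WT replicates 1, 2 and 3. It was lower in every *atwri1-1* library, with means of 15.4 ± 1.05 RPKM in *atwri1-1* and 20.0 ± 1.38 RPKM in WT (difference -4.60, two-sided exact permutation p = 0.1, again the smallest possible). With no TMM scaling the difference was -2.51 RPKM (p = 0.200, the same exact test), so the groups then overlapped. *WRI2* made up 79.1 to 82.9% of this sum in *atwri1-1* and 63.8 to 77.6% in WT. *WRI1* was 49.9 ± 1.58 times the sum in *atwri1-1* and 5.71 ± 1.04 times in WT (SD, n = 3 each).

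Among the 18 genes of the AP2 subfamily, *WRI1* was first in both genotypes by mean RPKM. The next genes in *atwri1-1* were *PLT5* (106 RPKM), *ANT* (82.0 RPKM) and *PLT3* (57.6 RPKM), and in WT they were *PLT3* (77.4 RPKM), *PLT5* (66.6 RPKM) and *ANT* (50.0 RPKM). PLT3 and PLT5 are known to act together in lateral root formation, and ANT in organ growth. *WRI1* thus stood clear of *PLT5* by a wide margin in *atwri1-1*, while in WT its lowest library (101 RPKM) was only just above the highest of *PLT3* (89.8 RPKM). *WRI2* was 8th in both genotypes, *WRI3* 13th in *atwri1-1* and 14th in WT, and *WRI4* 15th in *atwri1-1* and 12th in WT. Of the 14 subfamily genes outside the WRI group, 11 were tested and 0 were called by edgeR's quasi-likelihood test at the threshold above. Over all genes, 5.31% were called lower and 1.08% higher, so 0 calls among 11 genes describe these genes and no more. The median log2 fold change of the 11 was 0.34, with a range of -0.63 to 0.72, against a median of -0.01 over all genes. At an unadjusted p under 0.05, *ANT* (log2 fold change 0.72, adjusted p = 0.0309), *PLT5* (0.66, adjusted p = 0.0221), the floral and seed size regulator *AP2* (0.70), *PLT7* (-0.63) and the embryogenesis regulator *BBM* (-0.43) differed, all within the fold minimum. None of these genes was called under the 13 other settings either, and *AIL1* had no reads.

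**Figure D3:**
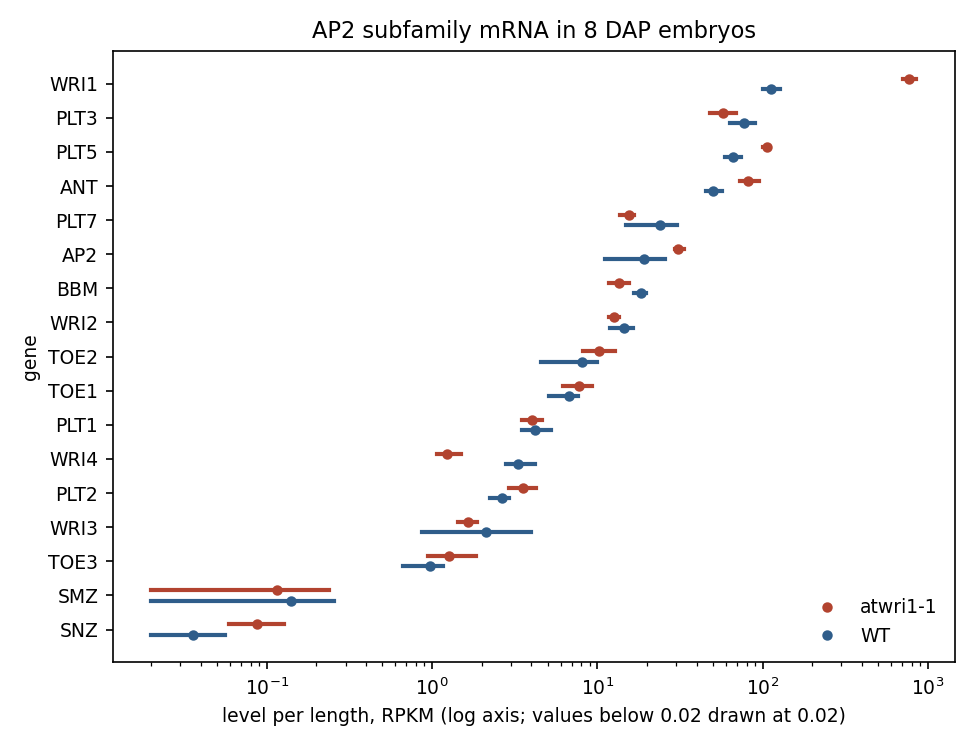
Level per length (RPKM, log axis) of the AP2 subfamily genes with reads, in the order of their WT means, with *atwri1-1* above WT for each gene. Points are means and bars run over the 3 libraries of a genotype, with values below 0.02 drawn at 0.02. *WRI1* is the gene farthest apart between genotypes, at 770 RPKM in *atwri1-1* and 113 RPKM in WT, and *WRI4* is next, on the other side.

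The genes of the functions that WRI1 is known to activate went the other way from *WRI1* mRNA. The list held 40 genes, for plastidial glycolysis, FA synthesis, lipoic acid supply and plastid transport, with the sucrose synthase *SUS2* and the biotin ligase *HCS1*. The list was chosen with earlier results of these data known, so its counts describe these genes and no more. All 40 were tested, and 33 were called lower and 0 higher, against the 5.31 and 1.08% of all genes given above. None was higher at an unadjusted p under 0.05 or by DESeq2 or limma-voom, and the number called lower was 28 to 33 without any one library. Their median log2 fold change was -2.50, and their summed level was 4928 to 5499 CPM in *atwri1-1* and 25090 to 27496 CPM in WT. The largest falls were those of *BCCP2*, the biotin carrier of plastidial acetyl-CoA carboxylase (log2 fold change -5.48), the acyl carrier protein gene *ACP5* (-5.21), the sucrose synthase gene *SUS2* (-4.88), *LPD1*, a dihydrolipoamide dehydrogenase of the plastidial pyruvate dehydrogenase (-4.56), *PDH-E1-BETA-A* of the same complex (-3.74) and *ACP1* (-3.64), with adjusted p-values of 7.2e-05 to 3.8e-04 from edgeR's quasi-likelihood test.

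Of the 7 genes of this list that were not called, 6 had a negative log2 fold change. *FAB1*, a condensing enzyme that elongates palmitate, averaged 284 CPM in *atwri1-1* and 492 CPM in WT (log2 fold change -0.80, adjusted p = 0.0460, edgeR's quasi-likelihood test). *SSI2*, the stearoyl desaturase, averaged 282 CPM in *atwri1-1* and 422 CPM in WT (-0.58, adjusted p = 0.0367). *FAB1* and *SSI2* were past the adjusted p and within the fold minimum. *BASS2*, a plastid pyruvate transporter, averaged 121 CPM in *atwri1-1* and 238 CPM in WT without overlap (-0.98, adjusted p = 0.0675), just short of both limits. The other 4 were the transporters *GPT1* (-0.59) and *FAX1* (-0.19), the biotin ligase *HCS1* (-0.26) and the thioesterase *FATB*, which was the only gene of the 40 with a positive log2 fold change (0.13).

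The regulators of seed maturation that are known to act on *WRI1* or beside it were mixed. *LEC1*, *LEC2* and *FUS3* are known to activate *WRI1*. *L1L* codes for a LEC1-like factor and *BZIP67* for a partner of it. Of 11 regulators listed, 10 were tested, with 2 called lower and 1 higher (5.31 and 1.08% over all genes). Their median log2 fold change was 0.34 (-0.01 over all genes). At an unadjusted p under 0.05 by edgeR's quasi-likelihood test, 2 were lower and 4 higher. Those higher were *LEC1*, *LEC2*, *ABI3* and *AGL15* (log2 fold change 0.36, adjusted p = 0.124, the same test). *BZIP67* was near the floor in *atwri1-1*, at 0.823, 0.296 and 1.13 CPM in replicates 1, 2 and 3, against 83.4, 62.3 and 61.5 CPM in WT replicates 1, 2 and 3 (log2 fold change -6.68, adjusted p = 2.3e-04, edgeR's quasi-likelihood test). *L1L* had 23.2, 14.9 and 30.4 CPM in *atwri1-1* and 436, 242 and 254 CPM in WT (-3.77, adjusted p = 0.00125). For both genes every *atwri1-1* library was below every WT library.

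*LEC2* was the regulator called higher, at 24.6, 22.7 and 19.7 CPM in *atwri1-1* and 8.95, 12 and 11.8 CPM in WT (log2 fold change 1.03, standard error 0.180, adjusted p = 0.0129, edgeR's quasi-likelihood test). Its value lay just past the fold minimum, and no regulator was called higher without *atwri1-1* replicate 1 or 2, or at an adjusted p of 0.01. *LEC1* had 84.3, 76.9 and 57.2 CPM in *atwri1-1* and 59.2, 35.1 and 31.1 CPM in WT (0.80, adjusted p = 0.118), and *FUS3* averaged 213 CPM in *atwri1-1* and 189 CPM in WT (0.18, adjusted p = 0.548). *ABI3*, a maturation regulator and the most abundant of the list, averaged 591 CPM in *atwri1-1* and 475 CPM in WT (0.31, adjusted p = 0.182). *MYB89*, which is known to repress *WRI1*, had no reads in any library.

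Cutin and wax genes, the functions served by *WRI3* and *WRI4* elsewhere in the plant, had a median near that of all genes. Of 23 listed, 16 were tested, with 1 called lower and 0 higher (5.31 and 1.08% over all genes). Their median log2 fold change was 0.10, with 11 above 0 and 5 below. The gene called was *PAS2*, a dehydratase of very-long-chain FA elongation, which averaged 28.1 CPM in *atwri1-1* and 119 CPM in WT (log2 fold change -2.08, adjusted p = 0.00236, edgeR's quasi-likelihood test). The most abundant genes not called were *DCR*, an acyltransferase of cutin synthesis, at 808 CPM in *atwri1-1* and 643 CPM in WT (0.33), and *KCR1*, a reductase of the same elongation cycle as PAS2, at 253 CPM in *atwri1-1* and 319 CPM in WT (-0.34). At an unadjusted p under 0.05, 3 genes of the list were higher and 3 lower, while DESeq2 and limma-voom each called 0 higher and 1 lower. Beside *PAS2*, the lower genes were *CER6*, a condensing enzyme (log2 fold change -0.86, adjusted p = 0.00878, within the fold minimum), and *CER10*, a reductase (-0.88, adjusted p = 0.0544), both of very-long-chain FA elongation. The higher genes were *CER2* (0.98, adjusted p = 0.0346, just within the fold minimum), *LACS2* (0.38, adjusted p = 0.181) and *CYP77A6* (2.59, adjusted p = 0.0827). *CYP77A6* was near the floor, at 0.885 CPM in *atwri1-1* and 0.133 CPM in WT. All these adjusted p-values are from edgeR's quasi-likelihood test. Without WT replicate 2, 2 genes of the list were called lower, and without WT replicate 1, 2 were called higher.

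**Figure D4:**
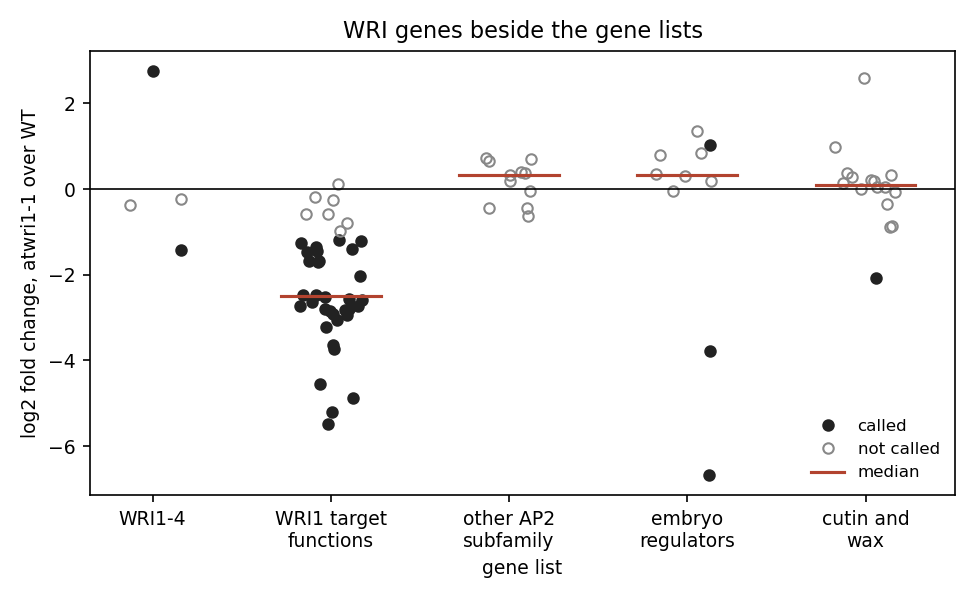
Log2 fold change of *atwri1-1* over WT for the 4 members and for the tested genes of the 4 lists, with filled points for genes called and open points for the others. Horizontal lines are list medians, at -2.50 for functions that WRI1 is known to activate, 0.34 for the other AP2 genes, 0.34 for the regulators and 0.10 for cutin and wax genes. *WRI1*, at 2.76, is above every gene of the 4 lists.

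Pearson's r of log2 CPM over the 6 libraries was computed between *WRI1* and 12286 genes with at least 10 CPM on average. The genes that varied most like *WRI1* by r were AT1G60640 (r = 0.999), *CESA9* (r = 0.999), a cellulose synthase, AT4G02940 (r = 0.998), *CCR1* (r = 0.998), a lignin pathway enzyme, and AT4G21910 (r = 0.996). Of these, AT4G02940 and *CCR1* were called higher, at 60.5 CPM in *atwri1-1* against 11.8 CPM in WT and 49.3 CPM in *atwri1-1* against 23.0 CPM in WT. For *WRI4* they were *ATU2AF35A* (r = 0.996), AT1G18460 (r = 0.995), AT4G05070 (r = 0.995), AT1G53025 (r = 0.992) and *EXL3* (r = 0.991), of which AT4G05070 was called lower. Pearson's r takes no account of the size of a change. The log2 fold change was 0.59 to 2.36 for the genes listed for *WRI1* and -0.16 to -1.56 for those listed for *WRI4*. The 6 libraries are 2 groups that share the genotype difference and the scaling, so the values of r order the genes and describe no more.

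Markers of other seed tissues were read beside these results, because dissected embryos can carry seed coat or endosperm. Over all genes, 5.31% were called lower and 1.08% higher. Of 9 seed coat markers, all with reads, 7 were tested and 0 were called by edgeR's quasi-likelihood test, DESeq2 or limma-voom, nor did any have an unadjusted p under 0.05, with a summed level of 405 to 615 CPM in *atwri1-1* and 397 to 479 CPM in WT. Of 9 endosperm markers, 5 were tested. None was called lower or had a lower level at an unadjusted p under 0.05. By edgeR's quasi-likelihood test 2 were called higher (DESeq2 3, limma-voom 0), against 1.08% of all genes. They were the endosperm proliferation regulator *AGL62* (1.71 CPM in *atwri1-1* and 0.449 CPM in WT) and the imprinted gene *FWA* (1.90 CPM in *atwri1-1* and 0.334 CPM in WT). Both were near the floor in WT, at 0.265 to 0.690 CPM for *AGL62* and 0.265 to 0.393 CPM for *FWA*. In the WT libraries 3 reads are 0.236 to 0.265 CPM. The summed level of the endosperm markers was 54.9 to 200 CPM in *atwri1-1* and 53.5 to 353 CPM in WT. Most of it came from *EPR1*, the only tested marker of the list with a log2 fold change below 0 (-0.62, adjusted p = 0.673, edgeR's quasi-likelihood test). Without *EPR1* the sum was higher in every *atwri1-1* library, at 15.4 to 39.2 CPM in *atwri1-1* and 9.03 to 14.1 CPM in WT. *ZOU*, a regulator of endosperm breakdown, averaged 17.6 CPM in *atwri1-1* and 7.07 CPM in WT (1.31, adjusted p = 0.112, edgeR's quasi-likelihood test). Its groups did not overlap, which held for 16.1% of all genes in this direction. *PHE1* was at 0 in all *atwri1-1* libraries and in 2 of the 3 WT libraries. The 10 embryo markers summed to 322 to 394 CPM in *atwri1-1* and 478 to 727 CPM in WT, but *L1L* alone carried this direction. Without it the other 9 summed to 307 to 371 CPM in *atwri1-1* and 236 to 291 CPM in WT, and 8 of the 9 had a log2 fold change above 0. The part of other tissues in the values of *WRI1* and *WRI4* was not tested.

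The motif that WRI1 binds, the AW Box (CNTNGNNNNNNNCG), was looked for in the members' own genes. The search ran from 500 bases upstream to 500 bases downstream of the start of the counted transcript, on both strands of TAIR10.1. For *WRI1* this start (20114684) lies inside the gene, which begins at 20114488, so part of its upstream window is within the gene. For the other members the transcript and the gene start at the same base. The matches are shown because they are where WRI1 could be looked for on its own family, with the fixed letters of the motif in capitals and the distance from the start given after.
WRI1, exon: CcTtGgagcctcCG
WRI2, exon: CgTcGgtgtcgtCG
WRI2, upstream: CtTgGaacgaggCG
WRI3, exon: CgTgGttgcgatCG
The *WRI1* match (chromosome 3, 20114897 to 20114910) lay 214 bases downstream of the start and the *WRI3* match (chromosome 1, 5508695 to 5508708) 385 bases downstream, both on the antisense strand. The *WRI2* matches lay 152 bases downstream (chromosome 2, 17402886 to 17402899) and 279 bases upstream (17403316 to 17403329), both on the sense strand, and *WRI4* had none. All downstream matches were in coding exons. A match was present downstream in 40.0% of 27421 protein-coding genes and upstream in 18.3%, so that the members' 3 of 4 and 1 of 4 describe these genes and no more. The other motif of WRI1-bound regions in soybean, the CNC Box (CNCCNCC), had 6 matches downstream in *WRI2*, overlapping in part, 1 in *WRI3*, 2 in *WRI4* and 0 in *WRI1*, and 48.2% of all genes had at least 1.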

How the data were processed

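Embryo RNA was amplified and made into libraries without strand marking. The deposited counts are whole reads per TAIR10 primary transcript in each library, which the authors obtained with Bowtie 0.12.7 after removal of rRNA reads, keeping reads with a single best place. A second deposited table holds the authors' normalized signal for 17972 of the transcripts, made with edgeR 3.10.5, which is CPM over TMM-scaled library sizes (recomputed from the counts to within 9.76e-07%). The versions are those in the submitters' processing notes.

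The row of each file that names no transcript (39.6 to 86.6% of the total) was left out. Counts were filtered by filterByExpr, scaled by TMM and tested with glmQLFit and glmQLFTest in edgeR 4.0.16 under R 4.3.3, over all 6 libraries and without a block. Standard errors were derived from the log2 fold change and the F statistic. The limit for a gene without reads, taken as 3 counts, was 0.148 to 0.338 CPM. Lengths, exons and sequences are from the RefSeq annotation of TAIR10.1, in which 24172 of the 24509 transcripts had a match. One *WRI1* sequence is not reported here. Ranks, sums and motif searches were computed in Python 3.11.15. Alternatives covered the filter, scaling, DESeq2 1.42.0, limma-voom 3.58.1, the adjusted p, the replicate block, the length and each library left out.

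Libraries with the same replicate number deviated together (correlation of deviations from group means 0.273, 0.280 and 0.236, against -0.233 to 0.0228 for other pairs). Deviations within a group cancel out, so positive values for some pairs push the others down. The numbers were taken to pair the samples in the replicate block and in the ratios by number. The main test and the exact permutation tests did not use this pairing. No source names a shared batch, and the title and description of WT replicate 3 give different numbers, of which the title's was used. Replicates of a genotype always differed by more than sampling noise (7.28 to 94.4 chi-square units per degree of freedom). The pairs of WT replicate 1 with WT replicates 2 and 3 gave 94.4 and 83.5, and the other pairs gave 7.28 to 18.3.

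The members and gene lists were chosen with earlier results of these data known. The genes named are the members, the called genes of each list (at most 6, with the largest change), the 2 most abundant not called, the regulators *LEC1*, *L1L*, *LEC2*, *FUS3* and *ABI3*, and the 5 genes most like *WRI1* and *WRI4*. The remaining targets not called, *ANT*, *AP2*, *PLT7*, *BBM*, *AGL15*, *CER2*, *CER6*, *CER10*, *CYP77A6*, *LACS2*, *EPR1*, *PHE1*, *ZOU* and the overlapping genes were named after their values were seen. On simulated counts for this comparison (18130 genes, 194 changed 3-fold and tested), the quasi-likelihood test recovered 84.5% and made 11 false calls. The simulation used a single dispersion shared by all genes and had no library standing apart, unlike the data.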

Additional observations from a re-analysis of the deposited data

How the results depend on the processing

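*WRI1* was called higher under all 13 alternatives and *WRI2* under none, and 28 to 33 of the 40 genes of WRI1 functions were called lower. *WRI4* was -1.25 on the log2 scale with no TMM scaling (adjusted p = 0.0636) and -1.42 at the stricter adjusted p of 0.01, past the threshold in neither, and -1.22 to -1.60 without 1 library. *WRI3* ranged from -0.72 to 0.49 without 1 library, positive only without WT replicate 1. With the replicate block, *WRI1* was 2.77 (adjusted p = 0.00105) and *WRI4* -1.43 (adjusted p = 0.0460), and no call of a member changed in this paired fit, in which 935 genes were lower and 224 higher. Genes called lower numbered 968 in the design without a block, 544 at an adjusted p of 0.01, and 545 to 1087 without 1 library. Genes called higher numbered 197, against 344 with no TMM scaling, 327 with DESeq2, 72 at an adjusted p of 0.01, and 74 to 364 without 1 library. Regulators called higher numbered 0 at an adjusted p of 0.01 and 0 to 1 without 1 library. Cutin and wax genes called lower numbered 1 to 2 without 1 library, and those called higher 1 with no TMM scaling and 0 to 2 without 1 library. The summed RPKM of the 3 paralogs differed by -2.51 with no TMM scaling, and their summed CPM without length by -6.70. The causes were not tested. *WRI3* and *WRI4* had only 11 to 72 reads per library, and the part of depth in their errors was not tested. With 3 libraries per group the exact tests could not go below 0.1.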
